A study of Homo sapiens with 18 samples.

Results

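The 10 genes described here encode enzymes that modify collagen while it is made or after it has left the cell: LOX, LOXL1, LOXL2, LOXL3 and LOXL4 (the lysyl oxidase family), PLOD1, PLOD2 and PLOD3 (the lysyl hydroxylases), and P4HA2 and P4HA3 (catalytic subunits of prolyl 4-hydroxylase). They were taken by symbol from a table of 19849 genes, in which each of the 10 was found on exactly 1 row. Their levels were followed across 18 microarrays of 3 human lung cancer cell lines, each measured in its epithelial, parental state and in a mesenchymal state, with 3 samples of each line in each state.

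Collagen chains are hydroxylated on proline and lysine in the endoplasmic reticulum. The prolyl 4-hydroxylases, in which an alpha subunit such as P4HA2 or P4HA3 joins the beta subunit P4HB, make the hydroxyproline that holds the triple helix together, and the PLOD enzymes make the hydroxylysine that is later glycosylated or crosslinked. Outside the cell, lysyl oxidases oxidise lysine and hydroxylysine side chains, which then react with their neighbours and bind collagen and elastin into stiff, insoluble fibres. In tumours these enzymes are known for stiffening the matrix, and LOX, PLOD2 and P4HA2 are known to be raised by low oxygen.

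A549, HCC827 and NCI-H358 are established lung adenocarcinoma lines, of which HCC827 carries mutant EGFR. All 6 groups were grown in RPMI1640 with serum and glutamine. The mesenchymal groups (labelled EMT) had been kept with TGFβ at 2 ng/ml for 3 weeks according to the labels, whereas the study's methods describe a length of exposure that depended on the line, shortest for A549. TGFβ was withdrawn from the medium on the day before lysis. A figure legend of the study calls the array samples biological samples that were prepared together, and nothing in the labels says that they came from separate inductions, so p-values measure the spread between these samples only. Each group is a bulk culture of a single line, in which a higher level in every cell and a larger share of cells with the transcript cannot be told apart.

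The array medians lay between 6.31 and 6.47 on the log2 scale. Arrays of the same group differed, gene by gene, with a standard deviation of 0.163 to 0.282 log2 units, and the same measure across the 2 states of a line was 0.719 to 0.896. The epithelial adhesion gene CDH1 fell by 5.81 in A549, fell by 2.95 in HCC827 and fell by 3.94 in NCI-H358, and all 6 mesenchymal markers, CDH2, ZEB1, SNAI2 and FN1 among them, were higher in the mesenchymal state of each line. The epithelial splicing regulator ESRP1 fell by 4.95 in HCC827 and fell by 7.20 in NCI-H358, from parental levels of 12.19 and 12.06, and was already at 3.53 in parental A549, where no fall could be measured. The lung lineage factor NKX2-1 was at 3.67 in parental and 3.90 in mesenchymal A549, whereas parental HCC827 was at 9.18 and parental NCI-H358 at 8.62. The other lung markers did not set A549 apart from both other lines. NAPSA was at 5.91 in parental A549, 6.02 in parental NCI-H358 and 10.87 in parental HCC827, where it fell by 4.71. SFTPB and SFTPC, named after their values were seen, ran from 5.57 to 5.84 and from 6.44 to 6.56 in the parental groups. All markers of leukocytes (up to 5.76) and of endothelium (up to 6.20) had group means below the array medians. They were not all flat. KDR, which gives the 6.20 in mesenchymal NCI-H358, rose there by 1.60 from 4.60, and in A549 CD14 fell by 1.36 and ITGAM by 1.82. The value of 6.20 is therefore not a measured background level. The table holds no detection calls, and 14 of the 60 group means of the 10 enzyme genes lay at or below 6.20: those of LOX and LOXL1 in all parental groups, LOXL1 in mesenchymal A549, LOXL3 in both A549 groups, LOXL4 in both HCC827 groups and parental NCI-H358, and P4HA3 in parental HCC827 and NCI-H358. Whether the genes were above background there is not known, and a fold change or a difference between lines that starts from such a level carries that limit.

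Of 5 fibroblast markers, 4 were higher in mesenchymal A549 and 3 each in mesenchymal HCC827 and NCI-H358. Their mean level per array went from 4.48 to 4.68 up to 5.37 to 5.40 in A549, from 4.64 to 4.84 up to 5.60 to 5.96 in HCC827 and from 5.43 to 5.54 up to 6.20 to 6.36 in NCI-H358. LUM, which encodes the collagen-binding proteoglycan lumican, went from 3.14 to 5.29 in A549, from 5.03 to 8.96 in HCC827 and from 8.22 to 10.37 in NCI-H358, whereas PDGFRA had group means of 2.71 to 3.90 and DCN of 4.71 to 5.27, both below the array medians. PDGFRB rose by 0.88 in HCC827 to 6.62 and by 0.71 in NCI-H358 to 6.52, above the array medians, and THY1, named after its values were seen, rose to 6.73 in A549. The part of these markers in the enzyme changes was not tested.

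Of the 30 changes measured, 10 genes in 3 lines, 26 were increases in the mesenchymal state, 0 were decreases and 4 did not pass the test (limma, Benjamini-Hochberg adjusted p below 0.05 over all 19849 genes). Decreases took up 26.8% of all genes for A549, 25% for HCC827 and 19.8% for NCI-H358. Unadjusted p-values below 0.05 and a t-test gave 0 decreases among the 10 genes as well. In A549, 9 of the 10 genes rose, where 16.6% of all genes did; in HCC827 8 rose, against 20.8% of all genes; in NCI-H358 9 rose, against 21.5%. On the log2 scale the median change of the 10 genes was 0.69 for A549, 1.46 for HCC827 and 1.19 for NCI-H358, and that of all genes was -0.021, 0.0051 and 0.015. Genes rising in all 3 lines were 4.31% of the table and included 8 of the 10, namely LOX, LOXL1, LOXL2, PLOD1, PLOD2, PLOD3, P4HA2 and P4HA3. LOXL3 passed in no line, and LOXL4 passed in A549 and NCI-H358. With the cutoffs the study used, an adjusted p below 1e-05 together with a fold change above 5, LOX passed in all 3 lines, as did 0.121% of all genes, LOXL1 passed in HCC827 and NCI-H358, and P4HA3 passed in A549. That made 2 of the 10 genes in each line, beside 1.17% of all genes for A549, 1.32% for HCC827 and 0.811% for NCI-H358.

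**Figure D1:**
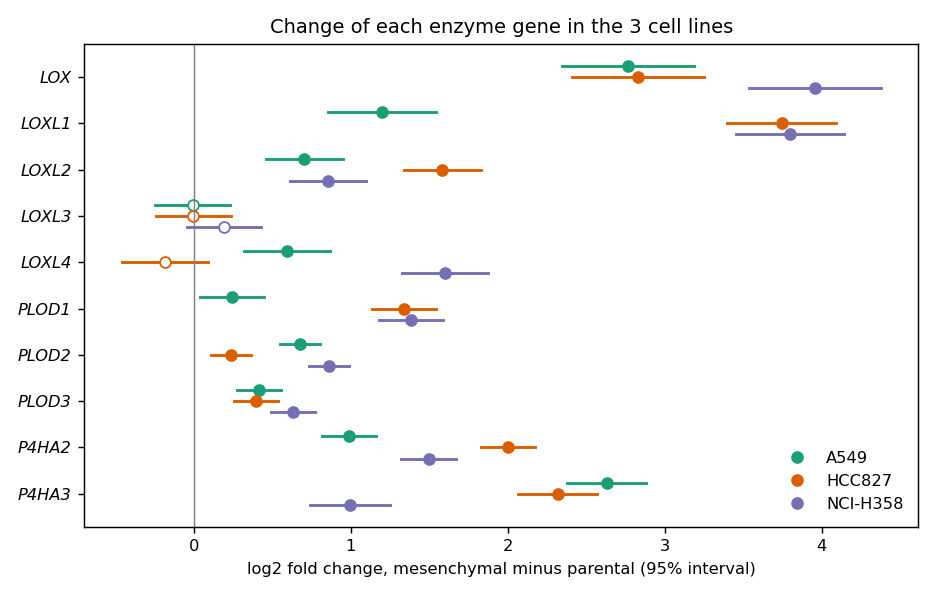
Change of each of the 10 enzyme genes between the parental and mesenchymal state, as a log2 fold change with its 95% confidence interval, for A549, HCC827 and NCI-H358; filled points have a limma adjusted p below 0.05 and open points do not. LOX lies above 2.7 in every line, LOXL3 lies at 0 in A549 and HCC827, and the order of the lines differs from gene to gene.

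Promoter sequence is shown for LOX, LOXL1, PLOD2 and P4HA2, the listed genes in which a SMAD box was found, and for LOXL3, which passed the test in no line. Each is the 250 bases before the start of the gene in RefSeq, build GRCh38.p14, read 5′ to 3′ on the gene's own strand, and 8 of the 10 genes matched the promoter table (LOXL2 and P4HA3 are named only). Capitals mark every match, on either strand, to any of 6 motifs. The SMAD box, bound by the transcription factors of TGFβ signalling, was searched as CAGAC. The cores of hypoxia response elements were searched as ACGTG and as GCGTG. The binding site of AP-1 was searched as TGANTCA, the E-box of the kind bound by ZEB and Snail factors as CACCTG, and the TATA box as TATAAA. The regions are LOX at chr5:122078260-122078509 on the minus strand, LOXL1 at chr15:73926212-73926461 on the plus strand, PLOD2 at chr3:146161185-146161434 on the minus strand, P4HA2 at chr5:132227092-132227341 on the minus strand and LOXL3 at chr2:74553943-74554192 on the minus strand.
LOX: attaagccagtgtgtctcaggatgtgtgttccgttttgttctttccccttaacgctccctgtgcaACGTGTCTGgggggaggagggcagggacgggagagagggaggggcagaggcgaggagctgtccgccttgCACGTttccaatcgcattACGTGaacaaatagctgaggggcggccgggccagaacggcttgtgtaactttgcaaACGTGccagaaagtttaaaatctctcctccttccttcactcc
LOXL1: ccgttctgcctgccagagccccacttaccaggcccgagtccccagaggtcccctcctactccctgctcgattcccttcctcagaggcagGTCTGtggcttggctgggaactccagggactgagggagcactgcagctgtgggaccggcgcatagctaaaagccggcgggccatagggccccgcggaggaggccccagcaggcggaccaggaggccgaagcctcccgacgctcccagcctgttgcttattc
PLOD2: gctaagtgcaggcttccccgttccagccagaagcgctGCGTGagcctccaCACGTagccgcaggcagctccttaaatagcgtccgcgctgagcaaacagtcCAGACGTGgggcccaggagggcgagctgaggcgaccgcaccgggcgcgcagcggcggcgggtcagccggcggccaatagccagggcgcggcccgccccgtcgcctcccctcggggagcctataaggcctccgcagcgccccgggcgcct
P4HA2: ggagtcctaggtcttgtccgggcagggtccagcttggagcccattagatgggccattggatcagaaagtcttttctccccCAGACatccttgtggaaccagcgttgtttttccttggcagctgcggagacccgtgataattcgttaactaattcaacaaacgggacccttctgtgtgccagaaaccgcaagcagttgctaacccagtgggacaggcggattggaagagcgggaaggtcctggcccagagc
LOXL3: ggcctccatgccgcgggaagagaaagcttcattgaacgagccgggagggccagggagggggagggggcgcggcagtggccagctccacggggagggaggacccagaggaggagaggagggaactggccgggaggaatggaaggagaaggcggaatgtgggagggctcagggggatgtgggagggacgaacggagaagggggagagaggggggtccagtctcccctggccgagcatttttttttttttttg

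A CAGAC box was present in LOX (starting at -181, counted from the start of the gene), LOXL1 (at -161), PLOD2 (at -149) and P4HA2 (at -170), and in 37.9% of 27305 promoters of the same length. It was absent from LOXL3, LOXL4, PLOD1 and PLOD3, of which PLOD1 and PLOD3 rose in all 3 lines. The LOX promoter held ACGTG at 4 positions, -185, -116, -98 and -42, the first of which overlaps its SMAD box. As many or more ACGTG were found in 194 promoters, or 0.71%. Such a share by number of matches was taken for LOX and this motif only. PLOD2 held ACGTG at 2 positions, the nearer of which overlaps its SMAD box, and GCGTG at 1. At least 1 ACGTG occurs in 18.6% of promoters and at least 1 GCGTG in 31.9%. Outside the printed genes, PLOD1 held GCGTG at 2 positions and LOXL4 held CACCTG at 1, a motif present in 17.5% of promoters. LOXL3 and PLOD3 held none of the 6 motifs, and no AP-1 site (6.57% of promoters) or TATAAA (11.2%) lay in any of the 8 windows. The GC content was 55.2% in LOX, 66.8% in LOXL1, 72.4% in PLOD2, 54.8% in P4HA2 and 64.4% in LOXL3, beside a median of 57.6% over all promoters. A match of letters is a description of the sequence and not of binding in these cells.

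LOX, the founding lysyl oxidase, rose in each line, most in NCI-H358. On probe set 204298 (Entrez gene 4015), parental A549 read 3.77, 3.73 and 3.17 and mesenchymal A549 5.88, 6.61 and 6.49 on the log2 scale of the array. Parental HCC827 read 5.67, 6.35 and 6.28 and mesenchymal HCC827 8.95, 8.83 and 9.0. Parental NCI-H358 read 4.79, 5.02 and 5.17 and mesenchymal NCI-H358 8.99, 8.87 and 8.98. In each line the lowest mesenchymal sample stood above the highest parental sample, as it did for 21% of all genes in the A549 samples, 23.8% in those of HCC827 and 27.2% in those of NCI-H358. The rise was 6.81-fold in A549 (log2 2.77, SE 0.198, adjusted p = 4.63e-09), 7.11-fold in HCC827 (2.83, SE 0.198, adjusted p = 2.43e-09) and 15.5-fold in NCI-H358 (3.95, SE 0.198, adjusted p = 3.98e-11). The exact permutation p of 3 samples against 3 cannot go below 0.1 for any of these, so the tests rest on the spread that limma pools over genes and groups. The parental levels of A549 (3.56), HCC827 (6.10) and NCI-H358 (5.0) are not known to be above background. The folds of LOX and the differences between lines are therefore those of the measured values only. The rise in NCI-H358 was larger than that in A549 by 1.19 (adjusted p = 0.00233) and than that in HCC827 by 1.12 (adjusted p = 0.00402), while those of HCC827 and A549 differed by 0.063, with a 95% interval from -0.53 to 0.66. The mesenchymal groups of NCI-H358 (8.95) and HCC827 (8.93) were not separated by the test (adjusted p = 0.947), nor was mesenchymal A549 (6.32) from parental HCC827 (6.10, adjusted p = 0.342); below them stood parental NCI-H358 at 5.0 and parental A549 at 3.56.

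LOXL1, which is known for its part in elastic fibre assembly, differed in change between A549 and the other lines. Probe set 203570 (Entrez gene 4016) read 3.95, 3.72 and 4.29 in parental A549 and 4.98, 5.25 and 5.33 in mesenchymal A549. It read 5.24, 5.80 and 5.60 in parental HCC827 and 9.20, 9.24 and 9.44 in mesenchymal HCC827. Values in parental NCI-H358 were 5.59, 6.00 and 5.60, and in mesenchymal NCI-H358 9.52, 9.38 and 9.68. No mesenchymal sample overlapped the parental samples of its line, yet the mesenchymal A549 samples all lay below the lowest parental NCI-H358 sample. The gene rose 2.29-fold in A549 (log2 1.20, SE 0.163, adjusted p = 1.16e-05), 13.4-fold in HCC827 (3.74, adjusted p = 5.01e-12) and 13.9-fold in NCI-H358 (3.80, adjusted p = 5.25e-12). The rise in A549 was smaller than in HCC827 by 2.55 (adjusted p = 1.09e-07) and than in NCI-H358 by 2.60 (adjusted p = 8.88e-08), and HCC827 and NCI-H358 differed by 0.055, with an interval from -0.43 to 0.54. In the order of levels, mesenchymal NCI-H358 (9.53) and HCC827 (9.29) were not separated by the test (adjusted p = 0.251), nor were parental NCI-H358 (5.73) from parental HCC827 (5.55, adjusted p = 0.387) and the latter from mesenchymal A549 (5.18, adjusted p = 0.063), and parental A549 (3.99) was lowest. Neither A549 group is known to be above background, nor are parental HCC827 and NCI-H358. The folds of LOXL1 and the differences between lines are therefore those of the measured values only.

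LOXL2, a lysyl oxidase that crosslinks collagen IV of basement membranes, rose by less than 3-fold in each line. On probe set 202998 (Entrez gene 4017), the parental samples ran from 10.25 to 10.34 in A549, 9.29 to 9.62 in HCC827 and 8.83 to 9.08 in NCI-H358. The mesenchymal samples ran from 10.96 to 11.04, 10.85 to 11.38 and 9.74 to 9.89 in the same lines, above the parental samples in each. LOXL2 rose 1.63-fold in A549 (adjusted p = 8.17e-05), 2.99-fold in HCC827 (adjusted p = 4.00e-09) and 1.81-fold in NCI-H358 (adjusted p = 9.56e-06). The rise in HCC827 exceeded that in A549 by 0.88 (adjusted p = 0.000293) and that in NCI-H358 by 0.73 (adjusted p = 0.00176). Mesenchymal HCC827 (11.06) and A549 (11.02) then stood at the top, not separated by the test (adjusted p = 0.767), and parental A549 (10.31) stood above mesenchymal NCI-H358 (9.83), parental HCC827 (9.48) and parental NCI-H358 (8.98).

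LOXL3 and LOXL4 were the members of the family that did not rise in every line. LOXL3 (probe set 228253, Entrez gene 84695), which is known for its role in cartilage and the palate, changed by -0.0075 in A549 (95% interval -0.24 to 0.23), by -0.0020 in HCC827 (-0.24 to 0.23) and by 0.19 in NCI-H358 (-0.045 to 0.43, adjusted p = 0.201). Its samples ran from 5.42 to 5.87 in parental and 5.54 to 5.71 in mesenchymal A549, and from 6.23 to 6.58 and 6.4 to 6.55 in HCC827, overlapping in both lines. In NCI-H358 they ran from 6.37 to 6.49 and from 6.52 to 6.73 and did not overlap, although the change missed the threshold. Both A549 groups, at a mean of 5.61 each, lay below the 4 groups of the other lines, whose means ran from 6.44 to 6.63 and whose neighbours in the order were not separated by the test. Neither A549 group is known to be above background for LOXL3.

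LOXL4 (probe set 227145, Entrez gene 84171), the member of the family closest to LOXL2 and LOXL3 in its scavenger receptor domains, moved differently in each line. It read 6.30, 6.31 and 6.33 in parental A549 and 7.02, 6.84 and 6.86 in mesenchymal A549. It read 5.68, 5.71 and 5.61 in parental HCC827 and 5.82, 5.45 and 5.18 in mesenchymal HCC827. NCI-H358 gave 5.70, 5.70 and 5.83 before and 7.60, 7.31 and 7.13 after. The groups were apart in A549 and NCI-H358 and overlapped in HCC827, where mesenchymal replicate 1 was above every parental sample and the other 2 were below. LOXL4 rose 1.51-fold in A549 (adjusted p = 0.00119) and 3.04-fold in NCI-H358 (adjusted p = 1.96e-08) and changed by -0.18 in HCC827 (adjusted p = 0.291), where without mesenchymal replicate 1 the change was -0.35 with an adjusted p of 0.0229. All 3 differences between lines passed the test, at -0.77 for HCC827 less A549 (adjusted p = 0.00236), 1.01 for NCI-H358 less A549 (adjusted p = 0.000244) and 1.78 for NCI-H358 less HCC827 (adjusted p = 7.07e-07). The order of levels was mesenchymal NCI-H358 (7.35), mesenchymal A549 (6.91) and parental A549 (6.31), each apart from the next, and then parental NCI-H358 (5.74), parental HCC827 (5.67) and mesenchymal HCC827 (5.48), whose neighbours were not separated. Neither HCC827 group nor parental NCI-H358 is known to be above background for LOXL4. Changes and differences that involve them are those of the measured values only.

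**Figure D2:**
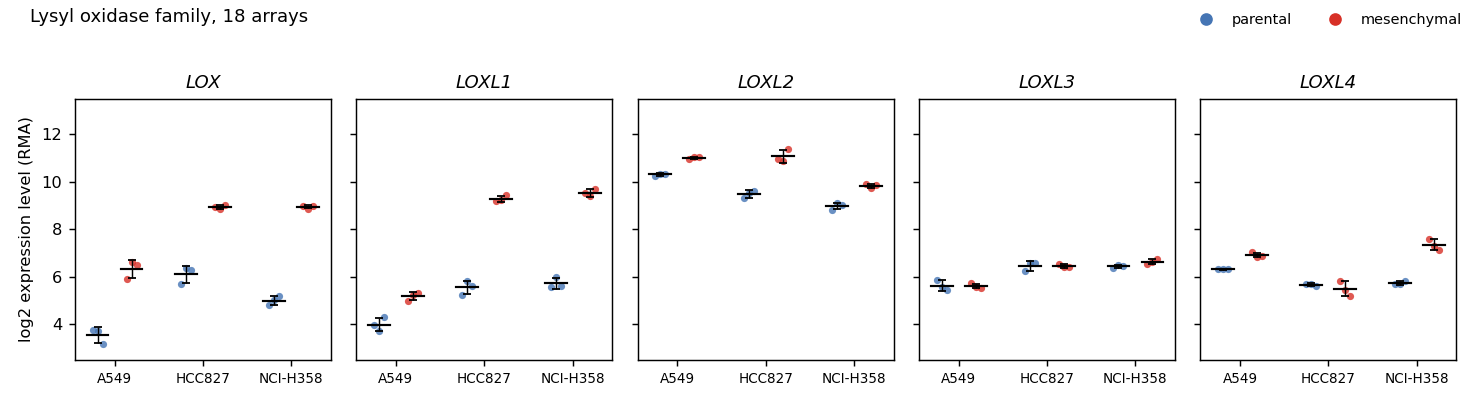
Log2 level of LOX, LOXL1, LOXL2, LOXL3 and LOXL4 in each of the 18 samples, by line and state, with a bar at the mean and whiskers of 1 SD for each group of 3. The LOX and LOXL1 samples of mesenchymal HCC827 and NCI-H358 lie between 8.83 and 9.68, above every A549 sample of those genes, whereas LOXL2 in mesenchymal A549 lies with that of mesenchymal HCC827.

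Among the lysyl hydroxylases, all 3 genes rose in all 3 lines, by less than 3-fold each. PLOD1 (probe set 200827, Entrez gene 5351), which hydroxylates lysines of the collagen helix, read 8.14, 8.19 and 8.18 in parental A549 and 8.40, 8.50 and 8.35 in mesenchymal A549. Parental HCC827 gave 7.81, 7.65 and 7.53 and mesenchymal HCC827 8.96, 8.89 and 9.15. Parental NCI-H358 gave 8.55, 8.59 and 8.82 and mesenchymal NCI-H358 10.01, 9.91 and 10.19. The shift was small beside the level in A549 and more than 1 log2 unit in the other lines. PLOD1 rose 1.18-fold in A549 (log2 0.24, SE 0.0962, adjusted p = 0.0497), 2.53-fold in HCC827 (adjusted p = 3.34e-09) and 2.61-fold in NCI-H358 (adjusted p = 2.73e-09). The A549 call was lost without any single A549 sample, and also without parental replicate 2 or mesenchymal replicate 1 of HCC827 or parental replicate 1 or 2 or mesenchymal replicate 1 of NCI-H358, with changes from 0.20 to 0.28 and an adjusted p of up to 0.159. The rise in A549 was smaller than in HCC827 by 1.10 (adjusted p = 4.60e-06) and than in NCI-H358 by 1.14 (adjusted p = 3.13e-06). All neighbours in the order of its 6 group means were separated by the test: mesenchymal NCI-H358 (10.04), mesenchymal HCC827 (9.0), parental NCI-H358 (8.65), mesenchymal A549 (8.42), parental A549 (8.17) and parental HCC827 (7.66).

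PLOD2 (probe set 202620, Entrez gene 5352), which hydroxylates the collagen telopeptides and so sets the kind of crosslink formed, rose by less than 2-fold in each line. It read 11.95, 12.05 and 12.13 in parental A549 and 12.72, 12.73 and 12.71 in mesenchymal A549. It read 11.92, 11.81 and 11.88 in parental HCC827 and 12.08, 12.11 and 12.14 in mesenchymal HCC827. In NCI-H358 it went from 11.30, 11.24 and 11.34 to 12.20, 12.17 and 12.10. The groups did not overlap in any line, and the narrowest gap was in HCC827. PLOD2 rose 1.60-fold in A549 (adjusted p = 6.19e-08), 1.18-fold in HCC827 (adjusted p = 0.00308) and 1.82-fold in NCI-H358 (adjusted p = 2.49e-09). The HCC827 rise was smaller than that of A549 by 0.44 (adjusted p = 0.000387) and than that of NCI-H358 by 0.62 (adjusted p = 1.40e-05), a different order of lines from PLOD1. NCI-H358 and A549 differed by 0.19 (adjusted p = 0.0897), and by 0.23 with an adjusted p of 0.0399 without parental A549 replicate 1. Mesenchymal A549 (12.72) was highest, mesenchymal NCI-H358 (12.16), mesenchymal HCC827 (12.11) and parental A549 (12.04) were not separated each from the next, and parental HCC827 (11.87) and parental NCI-H358 (11.29) were lowest.

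PLOD3 (probe set 202185, Entrez gene 8985), which carries glycosyltransferase activity as well as lysyl hydroxylase activity, rose by less than 2-fold in each line. Its parental samples ran from 9.42 to 9.54 in A549, 9.29 to 9.48 in HCC827 and 10.16 to 10.23 in NCI-H358, and its mesenchymal samples from 9.89 to 9.91, 9.67 to 9.83 and 10.77 to 10.90. The rise was 1.33-fold in A549 (adjusted p = 5.36e-05), 1.32-fold in HCC827 (adjusted p = 6.88e-05) and 1.55-fold in NCI-H358 (adjusted p = 4.24e-07). None of its 3 differences between lines passed, the nearest being NCI-H358 less HCC827 at 0.23 (95% interval 0.039 to 0.43, adjusted p = 0.0561). That difference passed without parental HCC827 replicate 2 (adjusted p = 0.0391), mesenchymal HCC827 replicate 3 (adjusted p = 0.0388) or mesenchymal NCI-H358 replicate 2 (adjusted p = 0.0490), and the one between NCI-H358 and A549 passed without parental HCC827 replicate 1 (adjusted p = 0.0428). Mesenchymal NCI-H358 (10.83) and parental NCI-H358 (10.20) stood above all other groups, and mesenchymal A549 (9.90) was not separated from mesenchymal HCC827 (9.76), nor parental A549 (9.48) from parental HCC827 (9.37).

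P4HA2 (probe set 202733, Entrez gene 8974), a prolyl 4-hydroxylase subunit, rose by 1 log2 unit or more in HCC827 and NCI-H358 and by just under that in A549. Parental A549 read 10.17, 10.19 and 10.04 and mesenchymal A549 11.09, 11.20 and 11.09. Parental HCC827 read 9.95, 10.07 and 10.03 and mesenchymal HCC827 11.94, 11.88 and 12.23. Parental NCI-H358 read 10.43, 10.45 and 10.54 and mesenchymal NCI-H358 12.02, 11.92 and 11.96. All 9 parental samples lay below all 9 mesenchymal samples, whichever line they came from. The share of all genes separated in this way was not counted. The rise was 1.98-fold in A549 (log2 0.99, SE 0.0817, adjusted p = 2.92e-08), 4.00-fold in HCC827 (2.00, adjusted p = 2.25e-12) and 2.82-fold in NCI-H358 (1.5, adjusted p = 1.17e-10). Each pair of lines differed, HCC827 from A549 by 1.01 (adjusted p = 1.75e-06), NCI-H358 from A549 by 0.51 (adjusted p = 0.00176) and NCI-H358 from HCC827 by -0.51 (adjusted p = 0.00205). Mesenchymal HCC827 (12.02) and NCI-H358 (11.97) were not separated by the test, and neither were parental A549 (10.13) and HCC827 (10.02), with mesenchymal A549 (11.12) and parental NCI-H358 (10.47) between these pairs.

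P4HA3 (probe set 228703, Entrez gene 283208), the third of the alpha subunits, had the largest spread of parental means between lines of the 10 genes, 2.75 on the log2 scale. It read 8.29, 8.22 and 8.32 in parental A549 and 10.93, 10.88 and 10.91 in mesenchymal A549. It read 5.38, 5.48 and 5.71 in parental HCC827 and 7.76, 7.83 and 7.93 in mesenchymal HCC827, and 5.53, 5.95 and 5.37 in parental against 6.46, 6.65 and 6.72 in mesenchymal NCI-H358. Every parental A549 sample was above every mesenchymal sample of the other lines, an order whose share among all genes was not counted. P4HA3 rose 6.19-fold in A549 (log2 2.63, SE 0.119, adjusted p = 1.16e-11), 4.98-fold in HCC827 (2.32, adjusted p = 4.42e-11) and 1.99-fold in NCI-H358 (1.0, adjusted p = 2.50e-06). The rise in NCI-H358 was smaller than in A549 by 1.63 (adjusted p = 5.93e-07) and than in HCC827 by 1.32 (adjusted p = 8.11e-06), whereas HCC827 less A549 was -0.31 (95% interval -0.67 to 0.046, adjusted p = 0.159). The 6 means were 10.91 in mesenchymal A549, 8.28 in parental A549, 7.84 in mesenchymal HCC827, 6.61 in mesenchymal NCI-H358, and 5.62 and 5.52 in parental NCI-H358 and HCC827, of which the last pair alone was not separated by the test. Parental HCC827 and NCI-H358 are not known to be above background for P4HA3. Folds in those lines and differences that involve them are those of the measured values only.

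**Figure D3:**
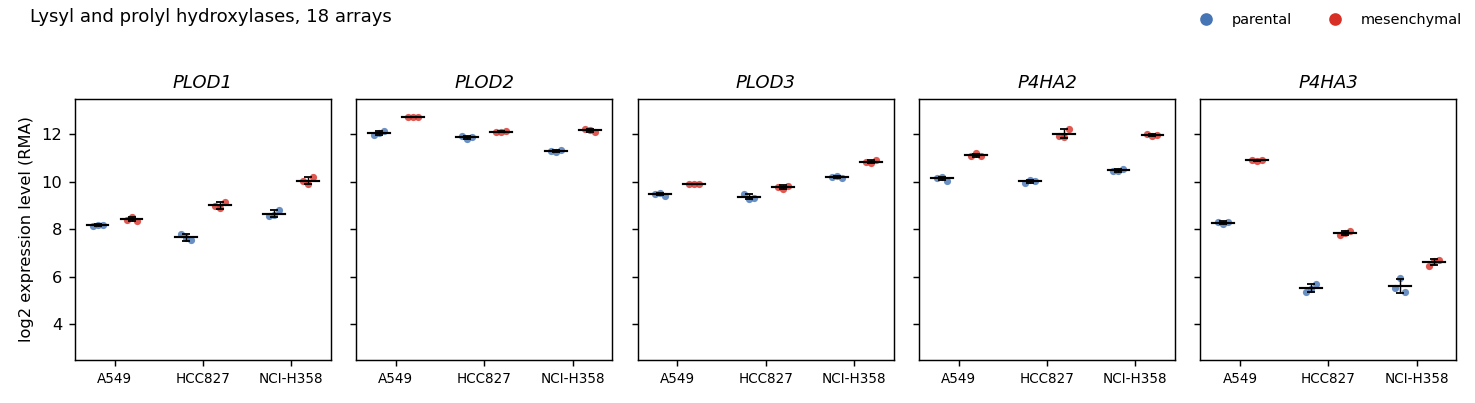
Log2 level of PLOD1, PLOD2, PLOD3, P4HA2 and P4HA3 in each of the 18 samples, by line and state, with a bar at the mean and whiskers of 1 SD for each group of 3. PLOD2 lies between 11.24 and 12.73 in every sample, P4HA2 separates all parental from all mesenchymal samples, and P4HA3 separates A549 from the other lines. The shares of all genes that do the same were not counted.

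Of the 30 differences of change between lines, 18 passed, 6 in each pair, where 42.2% of all genes passed for HCC827 against A549, 42.8% for NCI-H358 against A549 and 37.9% for NCI-H358 against HCC827. The 3 pairs share arrays, so their values stand side by side and are not independent of each other. LOXL4 and P4HA2 differed in all 3 pairs, and LOXL3 and PLOD3 in none. A549 had the smallest rise of LOXL1, PLOD1 and P4HA2, HCC827 had the smallest rise of PLOD2, and NCI-H358 had the smallest rise of P4HA3, each against both other lines by these tests. Before the transition the lines differed as well: 8 of the 10 genes differed between parental HCC827 and A549 (57.1% of all genes), all 10 between parental NCI-H358 and A549 (57.9%) and 6 between parental NCI-H358 and HCC827 (52.6%). In the mesenchymal state the same pairs differed in 8 (56.6%), 10 (58.8%) and 5 genes (52.6%).

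**Figure D4:**
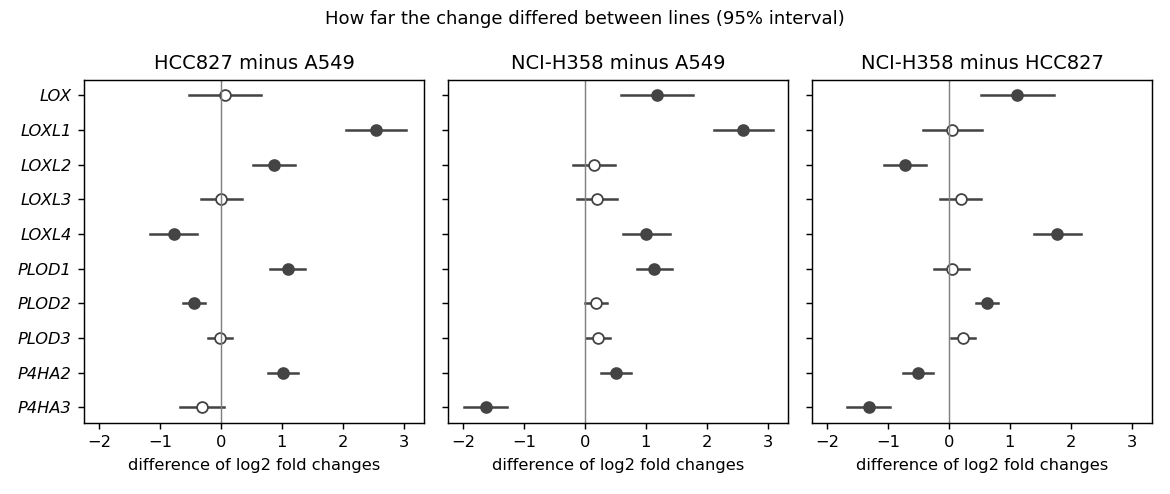
Difference between pairs of lines in the log2 change of each enzyme gene, with 95% confidence intervals; filled points have a limma adjusted p below 0.05. LOXL1 stands at 2.55 and 2.60 for HCC827 and NCI-H358 against A549, P4HA3 at -1.63 for NCI-H358 against A549, and LOXL4 at 1.78 for NCI-H358 against HCC827.

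The genes with the most similar pattern over the 6 group means were sought in the whole table, using the root mean square distance after each gene was centred on its own mean. By rank, LOXL1 was the second nearest gene to LOX, at 0.679, after the protease ADAMTS1 at 0.546. LOX was the fourth nearest to LOXL1, after BEND6 (0.534), EPYC (0.576) and MMP9 (0.639). By distance, other pairs of the enzyme genes lay closer, but many more genes of the table were nearer still. PLOD1 and PLOD3 lay at 0.364, where PLOD3 was only the gene of rank 60 from PLOD1, and PLOD1 of rank 1110 from PLOD3. P4HA2 and PLOD1 lay at 0.440, with PLOD1 at rank 87 from P4HA2. LOXL2 and PLOD2 lay at 0.481, with PLOD2 at rank 302 from LOXL2 and LOXL2 at rank 8692 from PLOD2. The nearest enzyme gene to LOXL3 and LOXL4 was PLOD3, at 0.485 (rank 8538) and 0.540 (rank 761). To P4HA3 it was LOXL2, at 1.27 (rank 399). Distances were not scaled to the span of a gene's group means, which was 5.39 for LOX, 5.54 for LOXL1 and 2.38 for PLOD1. For P4HA2 the nearest were MAGED2 (0.133), DLX2 (0.175) and PLEKHO1 (0.220), and for P4HA3 they were ITPRIP (0.269), KIAA1549L (0.409) and KCNG1 (0.445). PLOD1 had E2F7 (0.141) and TRAM2 (0.159) nearest and PLOD2 had ZC3H12A (0.106). With LOXL2 the nearest gene was RECQL (0.172), with LOXL4 it was ANXA10 (0.169), with PLOD3 it was LINC00085 (0.0972) and with LOXL3 it was AGRN (0.0635). These distances describe 6 points each and carry no test.

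The other enzymes that modify collagen in the endoplasmic reticulum moved in both directions. Of 10 such genes, 4 rose and 2 fell in A549, 6 rose and 1 fell in HCC827, and 8 rose and 1 fell in NCI-H358. Median changes were 0.17, 0.39 and 0.60. Counts for this and the later lists stand beside the shares of all genes that rose or fell, given above. P4HA1, the prolyl 4-hydroxylase subunit next to P4HA2 and P4HA3, changed by 0.15 in A549 (adjusted p = 0.091), fell by 0.22 in HCC827 (adjusted p = 0.0165) and rose by 0.61 in NCI-H358 (adjusted p = 1.40e-06). P4HB, the shared beta subunit, changed by -0.40 in A549 (adjusted p = 0.25), rose by 0.67 in HCC827 (adjusted p = 0.0478) and changed by 0.59 in NCI-H358 (adjusted p = 0.0883). The SD of its mesenchymal HCC827 samples was 0.69, no smaller than the rise, and that call lay close to the threshold. P3H1, the prolyl 3-hydroxylase, rose by 0.36, 2.27 and 1.71 in A549, HCC827 and NCI-H358, and P3H4, a partner of PLOD1, rose by 0.33, 0.88 and 0.95. P3H3 changed by -0.22 in A549 (adjusted p = 0.0639) and rose by 0.93 and 0.75 in the other lines.

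Procollagen chaperones and export genes, of which 12 of 13 were in the table, rose in 7 cases and fell in 2 in A549, rose in 8 and fell in 1 in HCC827, and rose in 11 with no fall in NCI-H358. Their medians were 0.21, 0.66 and 0.99. SERPINH1, the collagen chaperone HSP47, changed by 0.15 in A549 (adjusted p = 0.14) and rose by 1.45 in HCC827 and 1.61 in NCI-H358. FKBP10, a chaperone needed for lysyl hydroxylation of telopeptides, changed by 0.11 in A549 (adjusted p = 0.584) and rose by 1.01 and 1.20, FKBP14 fell by 0.42 in A549 and rose by 1.49 and 1.27, and FKBP7 rose by 0.25, 2.13 and 1.34. SPARC, a collagen-binding glycoprotein, rose by 2.88, 5.20 and 3.97 in A549, HCC827 and NCI-H358. Among 11 processing proteases and their enhancers, 4, 4 and 5 rose and 1, 0 and 0 fell. BMP1, the protease that cleaves the procollagen C-propeptide and the LOX propeptide, rose by 0.74, 1.35 and 0.88, and PCOLCE2, which enhances it, fell by 0.39 in A549 and rose by 1.88 in HCC827 and 2.27 in NCI-H358.

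Collagen chains, on which these enzymes act, rose in part. Of 11 fibrillar collagen genes, 6 rose in A549, 7 rose and 1 fell in HCC827, and 7 rose in NCI-H358, with median changes of 1.53, 1.45 and 0.55. COL1A1, the main chain of collagen I, rose by 3.42, 4.41 and 3.65, and COL3A1 by 1.76, 8.74 and 2.73. COL5A1 rose by 1.90 in A549 and 6.67 in HCC827 and changed by -0.18 in NCI-H358 (adjusted p = 0.301). Of 11 elastic fibre genes, 7 rose with the transition in A549, 4 did in HCC827 and 5 did in NCI-H358, with 0 falling in any line. The microfibril gene FBN1 rose by 1.71, 4.47 and 2.65, MFAP2 by 0.88, 1.72 and 3.37, and POSTN, which helps activate LOX, by 4.28 in A549 and 3.18 in NCI-H358, with a change of 0.092 in HCC827 (adjusted p = 0.78).

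Other hypoxia-responsive genes did not share one direction. Of 19, 6 rose and 8 fell in A549, 4 rose and 11 fell in HCC827, and 11 rose and 3 fell in NCI-H358. Their medians were -0.13, -0.52 and 0.40. Of all genes, 16.6% rose and 26.8% fell in A549, 20.8% and 25% did in HCC827, and 21.5% and 19.8% did in NCI-H358. ADM, which encodes adrenomedullin, fell by 4.53 in A549 and by 1.47 in HCC827 and rose by 1.27 in NCI-H358. EGLN3, an oxygen sensor of the same dioxygenase class as the collagen hydroxylases, fell by 1.92, 4.00 and 0.37. VEGFA rose by 2.80 in A549 and 0.53 in HCC827 and fell by 0.88 in NCI-H358, and ANGPTL4 rose by 3.38 and 2.11 and fell by 0.35. Of the 19, 2 rose in all 3 lines, as LOX, PLOD2 and P4HA2 did: KDM3A and BHLHE40, named after their values were seen. Genes rising in all 3 lines were 4.31% of the table. The part of hypoxia in the enzyme changes was not tested.

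**Figure D5:**
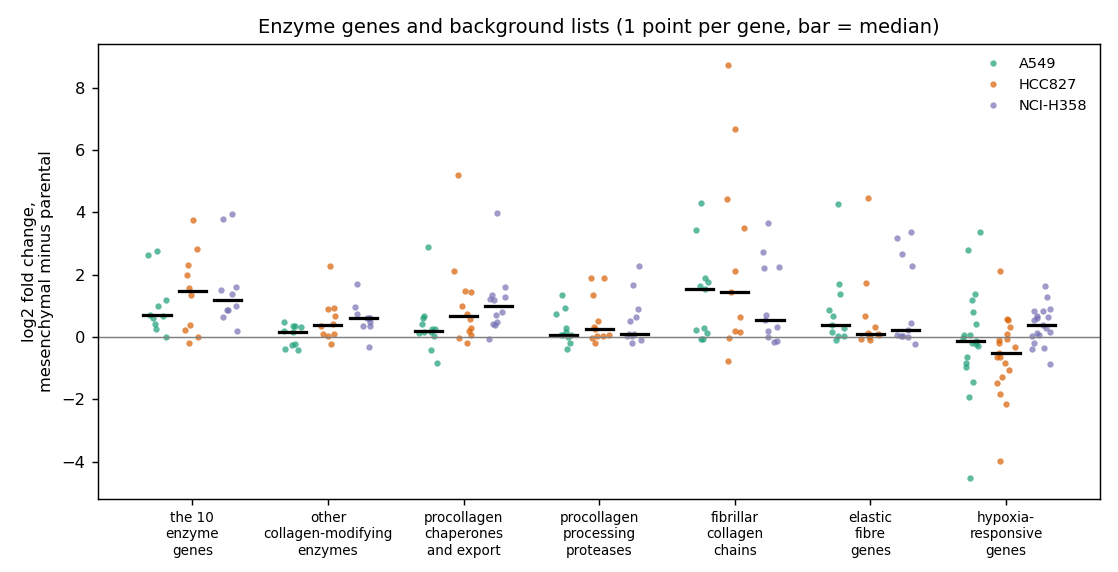
Log2 change of every gene of 7 lists in A549, HCC827 and NCI-H358, each point a gene and each bar the median of the list. The median of the 10 enzyme genes is 0.69, 1.46 and 1.19 in the 3 lines, and that of the hypoxia-responsive genes is -0.13, -0.52 and 0.40.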

How the data were processed

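RNA of the 18 samples was hybridised to Affymetrix Human Genome U133 Plus 2.0 arrays. The authors' deposited values are log2 levels after robust multi-array averaging (RMA), with 1 probe set per gene by a rule not given in the sources used here, so other probe sets of a gene were not analysed here. A level is comparable between arrays of the same probe set and not between genes. The values were used as deposited, with no filter. A single linear model with 6 groups and no covariate was fitted to all 18 arrays with limma 3.58.1 in R 4.3.3, and p-values of each contrast were adjusted by Benjamini-Hochberg over 19849 genes. Differences of change between lines were tested as interaction contrasts. An adjusted p below 0.05 counts as passed. The number of arrays limits the precision. The script was tested on simulated data.

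Samples were grouped by the line and state in their labels, and replicate numbers follow accession order. The members and all gene lists were chosen with earlier results of these data known, so counts over a list are descriptions. All 10 members are named, and from each list at most 4 genes with the largest mean absolute change among those called in at least 1 line, plus P4HA1, P4HB, SERPINH1, FKBP10 and BMP1. Any other list gene is marked in the text as named after its values were seen. The export gene CTAGE5 was not matched. Promoters came from RefSeq (GRCh38.p14), with the most upstream start used where several were listed. Alternatives were median centring, quantile normalization, a filter on dim genes, separate fits, an intensity trend, robust moderation, other thresholds and leaving out each array. A t-test was a further alternative, for the changes within lines only. The study's methods name limma for the arrays and a t-test where nothing else is specified.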

Additional observations from a re-analysis of the deposited data

Results flagged for a closer look

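These 18 differences are listed because the change from the parental to the mesenchymal state differed between a pair of lines by the interaction contrast (limma adjusted p below 0.05). Values are log2 differences in change, the second line's change taken from the first's. For HCC827 less A549 they were 2.55 for LOXL1, 0.88 for LOXL2, -0.77 for LOXL4, 1.10 for PLOD1, -0.44 for PLOD2 and 1.01 for P4HA2. For NCI-H358 less A549 they were 1.19 for LOX, 2.60 for LOXL1, 1.01 for LOXL4, 1.14 for PLOD1, 0.51 for P4HA2 and -1.63 for P4HA3. For NCI-H358 less HCC827 they were 1.12 for LOX, -0.73 for LOXL2, 1.78 for LOXL4, 0.62 for PLOD2, -0.51 for P4HA2 and -1.32 for P4HA3. Line and length of TGFβ exposure cannot be told apart here if the exposures differed as the study's methods describe.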

How the results depend on the processing

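No paired analysis was possible because the labels carry no replicate numbers that groups share. Separate fits per line or pair changed no call of the 10 genes. The t-test with adjusted p, run on the 30 changes and not on the differences between lines, changed none of those calls. With a fold change above 2 as well, the genes called higher numbered 3 in A549 and 5 in NCI-H358, and the differences called 3 for HCC827 against A549 and 3 for NCI-H358 against HCC827. Under the same threshold PLOD2 (0.24) and PLOD3 (0.40) lost their calls in HCC827. The P4HA2 difference of NCI-H358 and A549 (0.51) lost its call too. With the study's cutoffs 2 genes were higher in each line, and the differences called were 1, 1 and 0. Leaving out each sample gave 8 to 9 genes higher in A549, 8 to 8 in HCC827 and 9 to 9 in NCI-H358, 0 to 1 lower in HCC827 (LOXL4), and 6 to 6, 6 to 7 and 6 to 7 differences. PLOD1 in A549 also lost its call under robust moderation (adjusted p = 0.0512) and at an adjusted p below 0.01. With an intensity trend, PLOD2 (0.0185) and PLOD3 (0.0344) differed between NCI-H358 and A549, and PLOD3 between NCI-H358 and HCC827 (0.0238; 0.0377 with the filter on dim genes).

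Signs turned only in values near 0. LOXL3 became 0.061 in A549 and 0.063 in HCC827 with median centring and 0.052 in HCC827 with quantile normalization, which also turned the PLOD3 difference of HCC827 and A549 to 0.019 and the PLOD1 difference of NCI-H358 and HCC827 to -0.022. Leaving out each sample gave -0.10 to 0.12 for LOXL3 in A549 and -0.12 to 0.059 in HCC827; for HCC827 less A549, -0.16 to 0.26 for LOX, -0.12 to 0.10 for LOXL3 and -0.057 to 0.037 for PLOD3; and for NCI-H358 less HCC827, -0.072 to 0.21 for LOXL1 and -0.030 to 0.13 for PLOD1. In A549 the split of all genes was 3301 higher and 5316 lower, and 4207 and 4392 with median centring. The cause of these changes was not tested.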
